A study of Mus musculus with 6 samples.

Results

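Long intergenic non-coding RNAs (lincRNAs) are transcripts from between protein-coding genes that are not annotated to encode a protein. The lincRNA genes described here are those to which GENCODE M21 gives the gene type lincRNA and that had at least 30 reads when all transcripts and all 6 mice were summed. They number 160 of the 23492 genes with at least 1 read, and of the 5854 lincRNA genes in that annotation. Another 1599 lincRNA genes had 1 to 29 reads and are not described. The members were thus chosen by their read numbers, so their abundance is given as a description without a test.

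Most lincRNAs are capped, spliced and polyadenylated like messenger RNAs, but they are usually less abundant, have fewer exons and differ more between tissues. Some are nuclear: Malat1 sits in nuclear speckles, Neat1 is the scaffold of paraspeckles, and Ftx lies in the X-inactivation centre. Others are the spliced remains of primary transcripts whose introns release small nucleolar RNAs, which guide the chemical modification of ribosomal RNA, or hold microRNA hairpins. Many lincRNA exons in the mouse also contain sequence of transposable elements, which occurs in many copies across the genome.

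The tissue was epididymal white adipose tissue, the visceral fat pad beside the epididymis, from male wild type C57BL/6N mice aged 20 weeks. In the cold group, 3 mice (labelled 7, 12 and 16) were housed singly at 4 °C for 24 h before the tissue was taken. The ctrl group was 3 mice (labelled 5, 6 and 10) from the base housing of 22 to 24 °C; single housing is not stated for them. Poly(A) RNA was made into full-length cDNA without amplification, as the direct cDNA kit does, and sequenced on a nanopore, so that 1 read is 1 cDNA molecule; values are given as CPM, the reads of a gene per 1000000 reads on genes, for mice 7, 12 and 16 and then for mice 5, 6 and 10.

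The mice had 726283 to 1341592 reads on transcripts, so that 1 read was worth 1.379 CPM in cold mouse 7 and 0.747 CPM in ctrl mouse 6, the libraries at the ends of that range. The summed level of 10 markers of mature adipocytes was 51036, 53784 and 50155 CPM in the cold mice, against 48980.4, 53905 and 53072 CPM in the ctrl mice. Cold mouse 7 stood apart for 10 genes of the epididymal secretory epithelium, which summed to 319.9, 1.68 and 6.39 CPM in the cold mice, against 1.07, 3.73 and 2.65 CPM in the ctrl mice; Lcn9 and Spink11 of that list had no read in any mouse. For this reason counts of changed genes are also given without that mouse. In bulk tissue, fewer cells of a type and less RNA per cell cannot be told apart.

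The lincRNA members together held 0.895, 0.849 and 0.966% of the reads of the cold mice, against 0.914, 0.819 and 0.954% of those of the ctrl mice. The groups overlapped (exact two-sided permutation test, p = 0.9, n = 3 each; the smallest p that 3 against 3 mice can give is 0.1). A few genes supplied most of these reads: the 3 most abundant members held 43.5%, the 12 most abundant 71.4% and the 51 members with at least 100 reads 89.8% of all 54521 reads on members. Without the most abundant, Bc1, the share was 0.776, 0.739 and 0.776% in the cold mice, against 0.776, 0.707 and 0.759% in the ctrl mice, with overlap (exact permutation test, p = 0.7), and over all lincRNA genes of the annotation the same test gave p = 0.8. Without Malat1 and Neat1 as well, both lower on average in cold mice, the share was 0.584, 0.515 and 0.574% in the cold mice, against 0.475, 0.427 and 0.506% in the ctrl mice. These groups did not overlap, but this share was chosen after the data were seen. It leaves out Malat1 and Neat1, which were lower in cold mice, and that choice by itself moves the difference towards cold. The exact permutation test gave its smallest possible value, p = 0.1, which because of that choice cannot be read as a test result. The share includes the 4 genes found below to have risen. Their sum averaged 659 CPM in the cold mice and 192 CPM in the ctrl mice. Of the 4 shares compared, this share was the only one whose groups did not overlap.

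**Figure D1:**
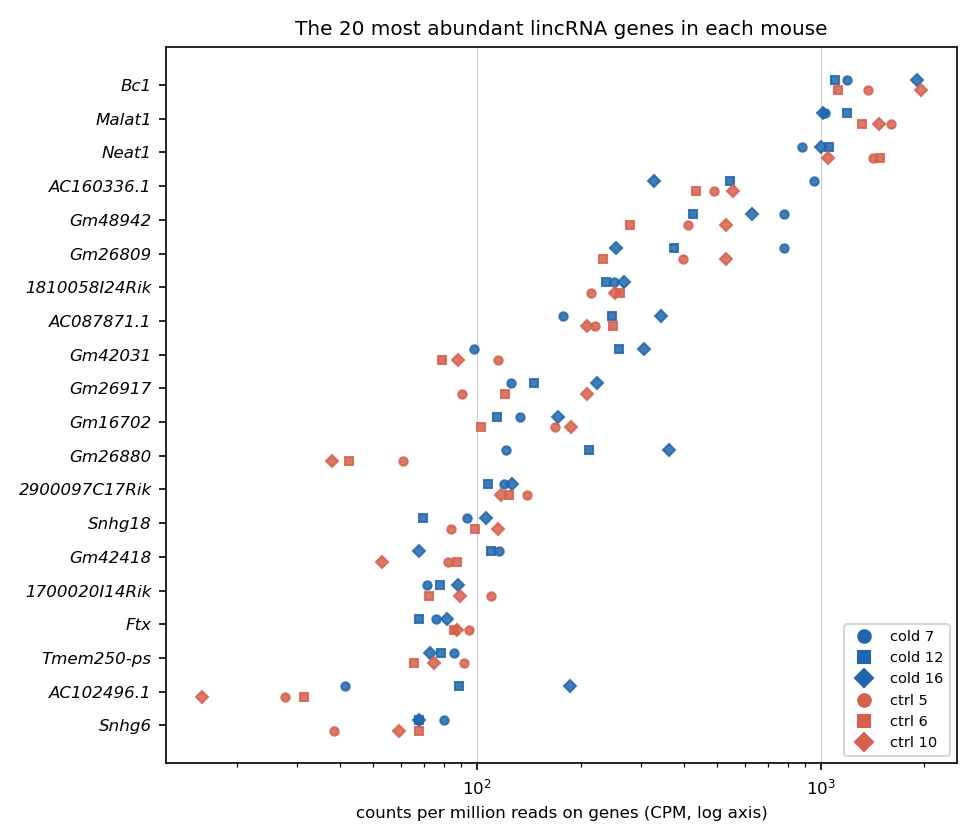
Level of the 20 lincRNA genes with the highest mean over all mice, one row per gene, in CPM on a log axis; blue symbols are the 3 cold mice, red symbols the 3 ctrl mice, and shapes tell the mice of a group apart. Bc1, Malat1 and Neat1 had at least 884 CPM in every mouse, and Gm26880 and AC102496.1 were the only ones of the 20 with all cold mice above all ctrl mice.

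The most abundant member was Bc1 (chr7:144914470-144914637, plus strand, GRCm38), a short rodent RNA known as a translational repressor in neurons. Its level was 1189.9, 1097 and 1902 CPM in the cold mice, against 1375, 1119.9 and 1955 CPM in the ctrl mice. The groups overlapped, with cold mouse 16 and ctrl mouse 10 highest. The RNA is shown because its sequence carries its own A-rich stretch, and the capitals mark the longest run of A in it, 23 bases.
Bc1-201: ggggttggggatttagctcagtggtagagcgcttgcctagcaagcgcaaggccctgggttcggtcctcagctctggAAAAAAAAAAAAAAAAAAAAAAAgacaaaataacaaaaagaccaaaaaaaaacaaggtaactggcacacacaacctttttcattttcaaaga
A stretch of 103 bases of this RNA matched the opposite strand of an Elp6 transcript at 95.2% identity, so that reads of related copies could be counted on it.

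Malat1 (chr19:5795690-5802672, minus strand), the abundant RNA of nuclear speckles, had 1029, 1188 and 1016 CPM in the cold mice, against 1598, 1316 and 1473 CPM in the ctrl mice. All cold mice were below all ctrl mice (log2 fold change −0.41, SE 0.13, adjusted p = 0.241, edgeR quasi-likelihood test adjusted over all genes tested), and the difference did not pass the threshold of 0.05. Neat1 (chr19:5824708-5845478, minus strand), whose long form builds paraspeckles, had 884, 1056 and 998 CPM in the cold mice, against 1417, 1481 and 1048 CPM in the ctrl mice. Cold mouse 12 was just above ctrl mouse 10, and the difference did not pass (log2 fold change −0.40, SE 0.14, adjusted p = 0.351). Both genes are known to end in an encoded A-rich tract that folds back on upstream U-rich sequence in place of a usual poly(A) tail. The library was made from poly(A) RNA, so their levels depend on how such RNAs were captured, which was not tested. The stretches below are shown for that reason: the first is bases 6634 to 6715 of the 6983 bases of Malat1-201, the next is the last 60 bases of the 20771-base Neat1-201, with the longest run of A in capitals. The others are the last 60 bases of the short Neat1-202 and of Malat1-201 as annotated, with the poly(A) signal AATAAA in capitals.
Malat1-201: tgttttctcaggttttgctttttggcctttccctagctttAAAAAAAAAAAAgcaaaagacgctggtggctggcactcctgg
Neat1-201: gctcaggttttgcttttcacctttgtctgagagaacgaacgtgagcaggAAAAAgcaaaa
Neat1-202: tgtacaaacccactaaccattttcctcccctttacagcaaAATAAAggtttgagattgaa
Malat1-201 end: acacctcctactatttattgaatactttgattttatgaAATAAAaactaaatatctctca
The longest run that the first 2 of these share is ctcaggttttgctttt, 16 bases, upstream of the A tract in both.

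The other members of the list of nuclear and chromatin RNAs were lower in abundance. The list was set by gene name, and the place of these RNAs in the cell was not measured. The Norad gene, annotated as 2900097C17Rik (chr2:156388065-156392979, minus strand), makes an unspliced RNA that binds Pumilio proteins, and was among the least variable members with 120.0, 107 and 126 CPM in the cold mice, against 139.7, 124 and 117 CPM in the ctrl mice. The groups overlapped (adjusted p = 0.935). Ftx had 75.8, 67.9 and 81.8 CPM in the cold mice, against 94.9, 85.9 and 87.4 CPM in the ctrl mice; every cold mouse was below every ctrl mouse, by little (log2 fold change −0.23, SE 0.16, adjusted p = 0.785). Meg3, an imprinted RNA expressed from the maternal chromosome and the one member on the list of imprinted genes, had 64.8, 42.8 and 40.9 CPM in the cold mice, against 78.9, 37.3 and 53.8 CPM in the ctrl mice, with overlap (adjusted p = 0.929). All 5 members of this list had a negative log2 fold change, with a median of −0.23 against 0.01 over all 9772 genes tested. The value was −0.08 for 2900097C17Rik, and none of the 5 passed the test. This cannot be read as a result about nuclear RNAs.

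The next group was a list of hosts of small nucleolar RNAs, set by gene name. Of its 20 annotated genes, 6 have the gene type lincRNA, and all 6 were members. The others, Gas5, Snhg1 and Zfas1 among them, have another gene type and are not described. Of the 6 members, 5 were tested and none passed, with a median log2 fold change of 0.11. By position, 8 members host a small nucleolar RNA, and these 8 are not described as a group. Snhg18, which holds Snord123, had 93.8, 69.6 and 106 CPM in the cold mice, against 84.3, 98.6 and 115 CPM in the ctrl mice, and Snhg6, which holds Snord87, had 79.97, 67.9 and 67.7 CPM in the cold mice, against 38.4, 67.9 and 59.1 CPM in the ctrl mice. The groups overlapped for both (adjusted p = 0.915 for Snhg18 and 0.669 for Snhg6). Snhg20 averaged 44.6 ± 4.09 CPM in cold mice and 42.95 ± 8.996 CPM in ctrl mice, Snhg12 averaged 42.8 ± 6.17 CPM in cold mice and 39.6 ± 8.93 CPM in ctrl mice, and Epb41l4aos averaged 30.7 ± 2.74 CPM in cold mice and 23.6 ± 4.48 CPM in ctrl mice (SD, n = 3 each). Snhg10 had only 45 reads and was not tested.

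MicroRNA hosts numbered 8 members, of which 6 were tested and none passed, with a median log2 fold change of −0.05. The reads here come from the long host RNA, and mature microRNAs are too short for this library. The host 6720427I07Rik (chr13:48532905-48546500, minus strand) spans the hairpins of let-7a-1, let-7f-1 and let-7d, and had 19.3, 11.7 and 20.4 CPM in the cold mice, against 12.8, 8.96 and 6.18 CPM in the ctrl mice. Cold mouse 12 was below ctrl mouse 5, and the difference did not pass (log2 fold change 0.87, SE 0.37, adjusted p = 0.521). Its 3 mature 5p microRNAs are printed from RefSeq (GRCm38.p6) because they share 1 seed, the bases 2 to 8 in capitals, while the products of Ftx on the X chromosome each have another.
let-7a-5p: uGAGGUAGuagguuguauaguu
let-7f-5p: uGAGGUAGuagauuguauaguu
let-7d-5p: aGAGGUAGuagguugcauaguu
miR-374b-5p (Ftx): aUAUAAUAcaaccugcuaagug
miR-421-5p (Ftx): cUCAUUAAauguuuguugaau
Meg3 spans Mir770 and Mir1906-1, and E130102H24Rik, with 44 reads, spans Mir101a. Smkr-ps averaged 17.8 ± 5.12 CPM in cold mice and 20.05 ± 3.79 CPM in ctrl mice (SD, n = 3 each; adjusted p = 0.939), and 2900076A07Rik averaged 10.8 ± 4.68 CPM in cold mice and 9.80 ± 2.08 CPM in ctrl mice (adjusted p = 0.988).

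The remaining members among the 12 most abundant mostly carry clone-style names and no known role. Gm48942 (chr14:91638499-91647839, minus strand) had 783, 425 and 628 CPM in the cold mice, against 411, 278 and 530.4 CPM in the ctrl mice. Ctrl mouse 10 was above cold mouse 12, and the difference did not pass (log2 fold change 0.61, SE 0.21, adjusted p = 0.337). 1810058I24Rik, a locus known to encode a mitochondrial micropeptide although it is typed here as a lincRNA, was even across mice with 249.6, 237 and 267 CPM in the cold mice, against 214, 261 and 252 CPM in the ctrl mice (adjusted p = 0.952). AC087871.1 had 178, 247 and 344 CPM in the cold mice, against 219.7, 249 and 209 CPM in the ctrl mice, and Gm16702 had 134, 114 and 172 CPM in the cold mice, against 169, 103 and 187 CPM in the ctrl mice; the groups overlapped for both (adjusted p = 0.846 and 0.949). The 3 loci of the list of ribosomal RNA-like genes were Gm26917, Gm42418 and Gm26870. Gm26917 had 125, 147 and 224 CPM in the cold mice, against 90.7, 121 and 209 CPM in the ctrl mice, and Gm42418 had 116, 109.9 and 67.7 CPM in the cold mice, against 82.1, 87.4 and 52.95 CPM in the ctrl mice. Neither passed (adjusted p = 0.879 and 0.598), and 67.9% of the length of Gm42418 matched the annotated ribosomal RNA CT010467.1 on the opposite strand.

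AC160336.1 and Gm26809 varied together. AC160336.1, annotated as a single exon of 93147 bases, had 957, 543 and 327 CPM in the cold mice, against 488, 433 and 555 CPM in the ctrl mice. Gm26809 had 782, 374 and 254 CPM in the cold mice, against 398, 233 and 529.5 CPM in the ctrl mice. Cold mouse 7 was highest and, within the cold group, cold mouse 16 lowest for both, and the groups overlapped (adjusted p = 0.803 and 0.877). The lead transcripts, meaning the transcript of a gene with most reads, share 1184 bases at 95.02% identity on opposite strands, so their reads may not be independent. Without cold mouse 7 the log2 fold changes were −0.16 for AC160336.1 and −0.28 for Gm26809, against 0.33 and 0.31 with it.

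Divided by the length of the lead transcript in kilobases, the CPM values fell in another order. Bc1, at 168 bases, stood at 8569.8 CPM per kilobase as a mean over the 6 mice, Gm48942 at 605 and AC087871.1 at 529. Of the other members named so far, Malat1 stood at 182, Gm26809 at 144, Snhg6 at 134 and 1810058I24Rik at 97.9 CPM per kilobase, while Neat1 stood at 55.2 and AC160336.1 at 5.91. Since a nanopore read counts 1 cDNA whatever its length, CPM is the scale that compares levels here. The values per kilobase rise as the lead transcript gets shorter, and they do not rank the members by level.

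In the comparison of cold with ctrl mice, 85 of the 160 members had enough reads to be tested and 75 did not; the tested members had at least 49 reads and the untested at most 61. Of the 85, 4 rose in cold mice, none fell and 81 did not pass. Over all 9772 genes tested, 0.542% rose and 0.113% fell, 64 genes in all or 0.655%. At an unadjusted p under 0.05, 7 members were higher and 3 lower, against 4.72% and 3.71% of all genes. The groups did not overlap for 7 of the 85 members, or 8.24%, with the cold mice above for 4 and below for 3; over all genes this was 13.7%, with 5.96% above and 7.7% below. The median log2 fold change was 0.05 over tested members and 0.01 over all genes, and no tested member outside the 4 went past 0.87 in size. The median standard error of a tested member was 0.29, against 0.24 over all genes.

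**Figure D2:**
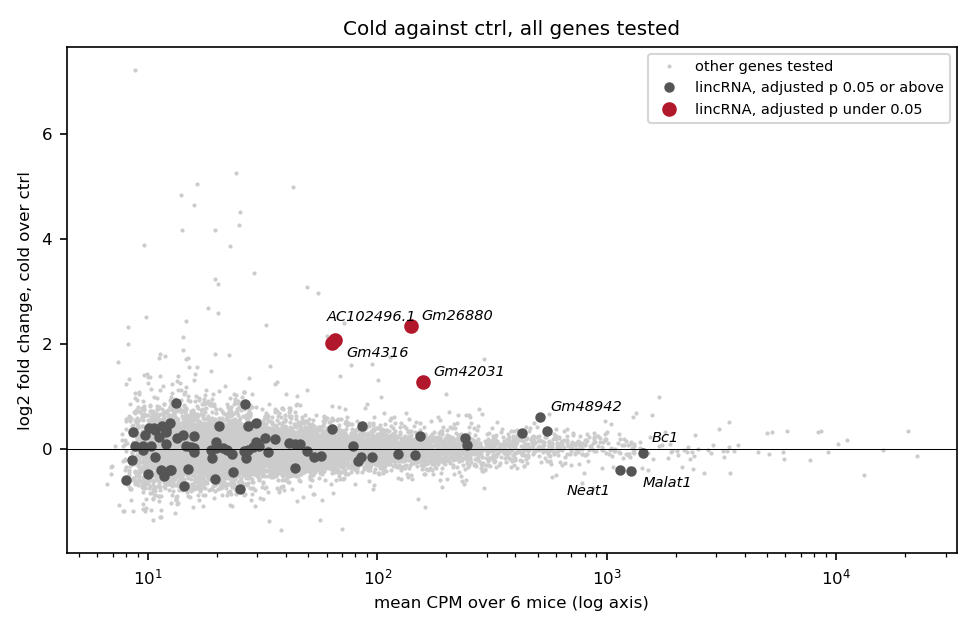
Log2 fold change of cold over ctrl against mean level over the 6 mice (CPM, log axis) for every gene tested; grey points are other genes, dark points lincRNA members that did not pass and red points the 4 that rose. The 4 lie between 1.28 and 2.34, and every other tested member within 0.87 of 0.

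The largest change was that of Gm26880 (chr4:146509094-146511764, minus strand), with 121, 212 and 363 CPM in the cold mice, against 60.8, 42.6 and 37.9 CPM in the ctrl mice. The groups did not overlap, and cold mouse 16 was highest (log2 fold change 2.34, SE 0.28, adjusted p = 6.92e-05). Gm4316 (chr8:123165255-123178765, plus strand) had 64.8, 101 and 138 CPM in the cold mice, against 29.9, 25.4 and 21.2 CPM in the ctrl mice, again without overlap (log2 fold change 2.02, SE 0.24, adjusted p = 6.92e-05). AC102496.1, on chromosome 18, had 41.4, 88.9 and 187 CPM in the cold mice, against 27.7, 31.4 and 15.9 CPM in the ctrl mice; the groups did not overlap, and cold mouse 16 was far above the others (log2 fold change 2.08, SE 0.37, adjusted p = 0.00444). Gm42031 (chr8:85125872-85132289, minus strand) had 97.9, 258 and 305 CPM in the cold mice, against 115, 79.1 and 88.3 CPM in the ctrl mice. Here the groups overlapped, since cold mouse 7 was below ctrl mouse 5 (log2 fold change 1.28, SE 0.26, adjusted p = 0.0177).

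Summed, these 4 genes had 325, 660.0 and 993 CPM in the cold mice, against 234, 178 and 163 CPM in the ctrl mice. Gm26880 and Gm4316 passed whichever mouse was left out. Gm42031 did not pass without cold mouse 12, cold mouse 16, ctrl mouse 6 or ctrl mouse 10, where its log2 fold change lay between 1.02 and 1.24 and its adjusted p between 0.0714 and 0.199, nor with DESeq2 (adjusted p = 0.682) or limma-voom (adjusted p = 0.0835). AC102496.1 did not pass without ctrl mouse 10 (log2 fold change 1.84, adjusted p = 0.0549) or with DESeq2 (adjusted p = 0.204), and without cold mouse 16 its log2 fold change was 1.47 (adjusted p = 0.0117). Without cold mouse 7, all 4 passed with log2 fold changes of 2.62 for Gm26880, 2.22 for Gm4316, 2.41 for AC102496.1 and 1.60 for Gm42031, and a further member, AC158975.2, passed too (log2 fold change 2.39, adjusted p = 0.0283).

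The 4 members that rose share sequence, although they lie on 3 chromosomes. The Gm42031 transcript of 1885 bases holds the same 557 bases at both ends, at bases 48 to 604 and again at 1329 to 1885, with 100% identity. The Gm26880 transcript matches it on the opposite strand over 811 bases at 95.8% identity, Gm4316 on the same strand over 614 bases at 92.3%, and AC102496.1 on the same strand over 374 bases at 92.2%. No repeat annotation was used here, so the shared stretch is not named. How reads that fit several such copies were divided is not stated for the deposited counts, and the 4 tests are not independent of each other.

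**Figure D3:**
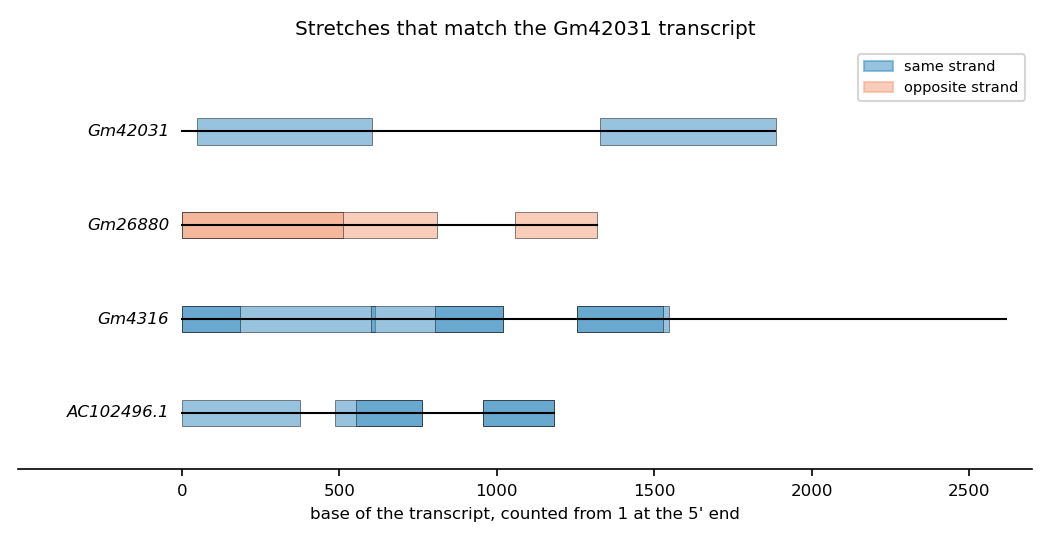
The lead transcripts of the 4 lincRNA genes that rose, drawn to scale from their first base; boxes mark stretches that match the Gm42031 transcript on the same strand (blue) or the opposite strand (orange), and darker boxes are stretches matched more than once. For Gm42031 the boxes are its own repeat at bases 48 to 604 and 1329 to 1885.

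A search of all annotated transcripts found 19 genes that hold at least 300 bases matching one of these 4 at 90% identity or more, the 4 included. This set was made after the 4 genes were known to have changed, so it is described without a test. Among the others was the lincRNA member AC158975.2, on chromosome 18, which had too few reads for the test. Its level was 6.89, 10.9 and 19.2 CPM in the cold mice, against 6.40, 1.49 and 0.883 CPM in the ctrl mice, with the lowest cold mouse just above the highest ctrl mouse. Of the 14 that are no members, 10 were tested: 5 rose, none fell and 5 did not pass. Over all genes tested, 0.542% rose and 0.113% fell. Reads of the shared stretch may have been counted on any of these genes, the protein-coding ones included. Their values may therefore not be independent of those of the 4 lincRNA genes.

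The 5 that rose were Gm43305, a processed transcript, Gm42427 and Gm10524, whose type the annotation leaves undecided, and the protein-coding Cep85 and Cnbd2. Gm43305 had 279, 566 and 488 CPM in the cold mice, against 209, 113 and 97.1 CPM in the ctrl mice (log2 fold change 1.72, SE 0.24, adjusted p = 0.000292). Cep85, which encodes a centrosomal protein, had 74.5, 136 and 215 CPM in the cold mice, against 57.6, 43.3 and 40.6 CPM in the ctrl mice (log2 fold change 1.63, SE 0.26, adjusted p = 0.0015). Cnbd2, which encodes a protein with a cyclic nucleotide-binding domain, had 63.4, 89.7 and 139 CPM in the cold mice, against 33.1, 17.9 and 17.7 CPM in the ctrl mice (log2 fold change 2.15, SE 0.27, adjusted p = 9.73e-05). The cold mice were above the ctrl mice without overlap for all 5, and cold mouse 7 was the lowest of the cold mice in each, as it was in the 4 lincRNA members. The 5 that did not pass were AI506816, Apobec3, Chd9, Fgd4 and Miga1. Of these, AI506816 had 41.4, 41.1 and 53.7 CPM in the cold mice, against 40.5, 55.996 and 52.1 CPM in the ctrl mice (log2 fold change −0.13, SE 0.20, adjusted p = 0.929), while Miga1 had 12.4, 18.5 and 52.4 CPM in the cold mice, against 11.7, 9.71 and 7.94 CPM in the ctrl mice, without overlap (log2 fold change 1.49, SE 0.43, adjusted p = 0.179).

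**Figure D4:**
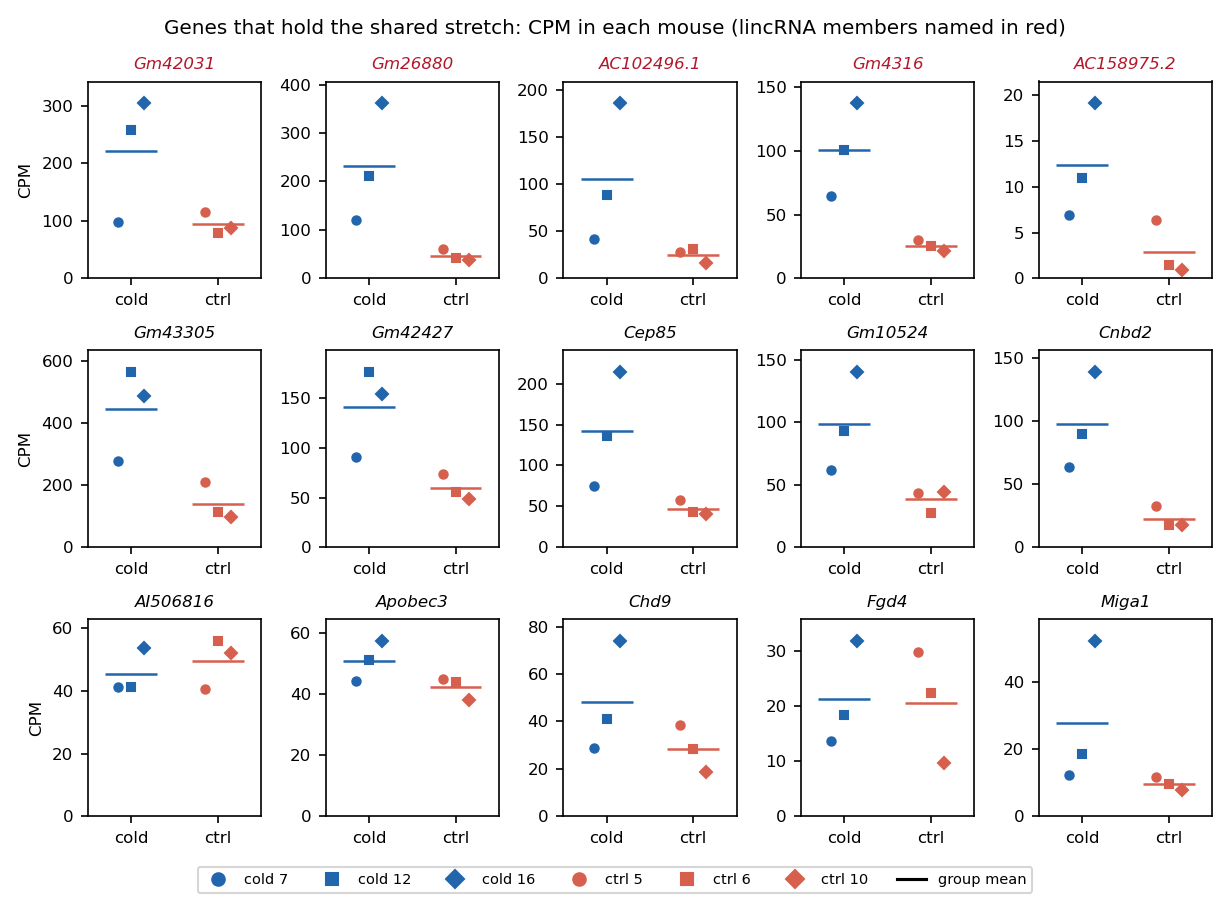
Level in each mouse (CPM) of the 15 genes with at least 30 reads that hold the shared stretch, cold mice at the left and ctrl mice at the right of each panel, with a line at the group mean; names of lincRNA members are red. The first 4 panels and the second row are the genes that passed the test, and the groups overlap in the panels of AI506816 and Fgd4, among others.

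Among the markers of other cell types, some sums differed between the groups and others overlapped. The 12 markers of duct and simple epithelium summed to 165, 486 and 409 CPM in the cold mice, against 71.5, 28.4 and 34.4 CPM in the ctrl mice; 5 of the 12 had enough reads to be tested, all 5 rose (Cldn7, Mmp7, Lcn2, Lrp2 and Epcam), and Atp6v1b1 had no read. Cold mouse 7 was the lowest cold mouse in this sum too, although its sum was above those of the ctrl mice. The marker lists were chosen with earlier results of these data known, so counts of markers that rose are a description only. Over all 9772 genes tested, 0.542% rose. Markers of sperm and spermatids, too few in reads to be tested, summed to 119, 139 and 10.2 CPM in the cold mice, against 1.07, 12.7 and 3.53 CPM in the ctrl mice. These groups overlapped, since cold mouse 16 was below ctrl mouse 6. The 7 endothelial markers summed to 22824, 23974 and 23239 CPM in the cold mice, against 17008, 19431 and 20359.9 CPM in the ctrl mice, with all cold mice above all ctrl mice, and none of the 7 passed the test. This list includes Fabp4, which is also on the list of mature adipocyte markers. The sum was not split by gene, so it cannot be read as a level of endothelial cells. The 7 markers of T and NK cells, too few in reads to be tested, summed to 9.65, 14.3 and 6.39 CPM in the cold mice, against 15.998, 22.4 and 22.1 CPM in the ctrl mice, with all cold mice below. Of the 10 mesothelial markers, which overlapped in sum, 7 were tested and Krt8 and Krt18 rose. The part of these cells in the lincRNA results was not tested.

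The nearest protein-coding genes gave no further call. Gm4316 overlaps the span of Gm20388, which had 33.1, 51.997 and 77.9 CPM in the cold mice, against 42.7, 35.8 and 52.95 CPM in the ctrl mice (adjusted p = 0.8). Pik3c3, 614 bases from AC102496.1, had 16.5, 10.9 and 22.99 CPM in the cold mice, against 22.4, 17.2 and 15.003 CPM in the ctrl mice (adjusted p = 0.961). Zfp791, 2777 bases from Gm42031, had 5 reads in all, and Zfp981, whose span overlaps that of Gm26880, had none.

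Among the members that did not pass, the following had groups without overlap. Gm17275, which lies across from the histone gene H3f3a and shares 644 bases with it on the opposite strand, had 24.8, 31.9 and 45.99 CPM in the cold mice, against 14.9, 20.9 and 20.3 CPM in the ctrl mice (log2 fold change 0.87, SE 0.27, adjusted p = 0.247). Without stated strand information, reads of Gm17275 and H3f3a cannot be told apart there; H3f3a itself had 507, 494 and 409 CPM in the cold mice, against 470.3, 524 and 494 CPM in the ctrl mice. 1700096K18Rik, an RNA of a single exon on chromosome 5, had 19.3, 19.3 and 16.6 CPM in the cold mice, against 37.3, 34.3 and 24.7 CPM in the ctrl mice, lower in all cold mice (log2 fold change −0.76, SE 0.26, adjusted p = 0.315). Malat1 and Ftx, described above, were the other members of this kind.

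Across the 6 mice, the highest CPM of a member with at least 100 reads was a median of 1.82 times its lowest (51 members), against 1.61 times over all 7780 genes of that depth. The ratio was smallest for A430046D13Rik at 1.17, 1810058I24Rik at 1.25 and 2900097C17Rik at 1.30, and largest for AC102496.1 at 11.7, Gm26880 at 9.56 and Gm4316 at 6.51. The files hold 2 tables for each mouse, and over the 36 to 59 members with at least 20 reads in a mouse these agreed within counting error, with a chi-square per degree of freedom of 0.927 to 1.16; members of fewer reads were not compared in this way.

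Transcript by transcript, 310 annotated transcripts of the members had reads and 87 were tested. Those that rose were the single tested transcripts of the same 4 genes, 4 of 87, and none fell; over all 12325 transcripts tested, 0.325% rose and 0.0568% fell. The division of reads among the transcripts of a gene could be tested in 11 members. None passed, and at an unadjusted p under 0.05 there was 1, Malat1; over all 2624 genes tested, 0% passed and 0.953% were under 0.05 unadjusted.

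Of the Malat1 reads, the spliced Malat1-203 of 485 bases took 8.58, 9.53 and 15.5% in the cold mice, against 7.54, 7.77 and 8.87% in the ctrl mice, highest in cold mouse 16 (adjusted usage p near 1 in edgeR's diffSpliceDGE). Gm10076, Gm26883, 1810058I24Rik, Ftx and 5031425E22Rik came next in order of p, also with adjusted values near 1. The long Neat1-201 took 79.6 ± 4.30% in cold mice and 78.3 ± 1.26% in ctrl mice, and the short Neat1-202 20.2 ± 4.10% in cold mice and 21.4 ± 1.18% in ctrl mice (SD, n = 3 each). The short form lies within the span of the long one, and read lengths were not used here, so a read that stops early may be counted on either. The 2 forms also end differently, and how each was captured from poly(A) RNA was not tested, so these shares are shares of reads only. Ftx was shared almost evenly by Ftx-212, with 49.7 ± 5.96% in cold mice and 48.6 ± 3.28% in ctrl mice, and Ftx-209, with 45.98 ± 3.64% in cold mice and 47.8 ± 3.68% in ctrl mice. For Meg3, the 14548-base Meg3-209 took 52.2 ± 9.73% in cold mice and 49.8 ± 1.10% in ctrl mice; Meg3-205 took only 6.25% in cold mouse 16, which had 2 reads on it.

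**Figure D5:**
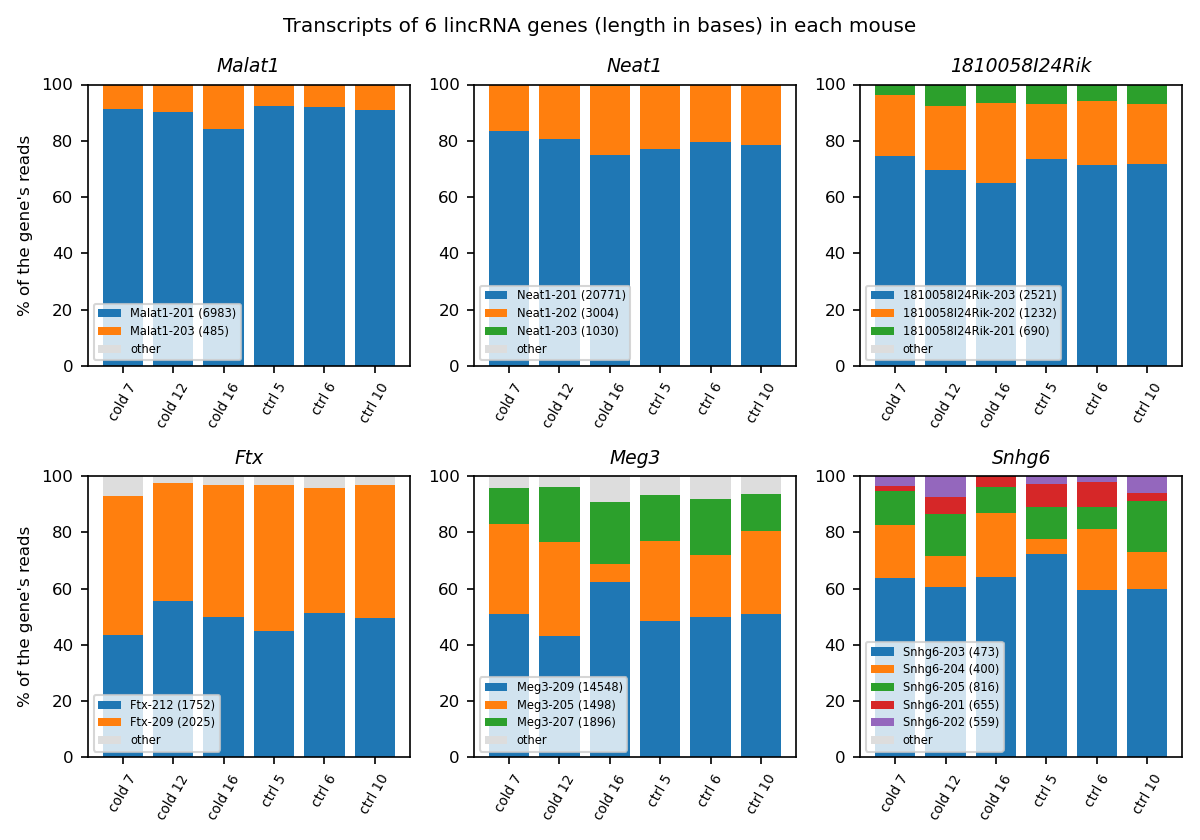
Share of the reads of a gene on each of its transcripts, in percent, for 6 lincRNA genes; bars from left to right are the 3 cold mice and the 3 ctrl mice, colours are transcripts with their length in bases, and grey is the rest. Malat1-201 took 84.3% in cold mouse 16 and at least 90.3% in each other mouse, and the order of transcripts within Neat1 and 1810058I24Rik was the same in all 6 mice.

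Most members showed a simple structure. In 95 of the 160 a single annotated transcript had all the reads, in 110 the lead transcript had over 90% of them, and 52 had at least 2 transcripts of 5 or more reads. The most diverse were Snhg12 with 8 such transcripts, 1300002E11Rik with 6, and Ftx, Snhg6, 1700047G03Rik and Meg3 with 5 each, followed by 5031425E22Rik and Snhg20 with 4 each. Of the Snhg12 reads, Snhg12-206 took 44.7 ± 4.14% in cold mice and 47.7 ± 5.82% in ctrl mice, and of the 1300002E11Rik reads the leading transcript took 35.2 ± 10.9% in cold mice and 28.2 ± 3.03% in ctrl mice (SD, n = 3 each). Neither gene passed the gene-level test (adjusted p = 0.957 and 0.943).

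Set beside the 11046 protein-coding genes of at least 30 reads, lincRNA lead transcripts were shorter, with a median of 1546.5 against 3031 bases, and more often a single exon, in 19.4% against 2.36%. At least 2 transcripts of 5 or more reads were seen in 32.5% of members against 71.5% of protein-coding genes; the median read number was 59.5 for members and 162 for protein-coding genes. A poly(A) signal, AATAAA or ATTAAA on the transcript strand, lay in the last 50 annotated bases of 60.6% of members and of 81.1% of protein-coding genes. A run of 12 or more A was present in 15% of members, as in Bc1, Ftx and Malat1, and in 11.1% of protein-coding genes. The ends below are shown as members that carry the signal, in capitals, within their last 60 bases.
2900097C17Rik-202: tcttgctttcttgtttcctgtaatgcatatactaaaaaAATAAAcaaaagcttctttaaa
1810058I24Rik-203: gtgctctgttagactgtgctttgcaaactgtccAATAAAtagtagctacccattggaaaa
Snhg18-201: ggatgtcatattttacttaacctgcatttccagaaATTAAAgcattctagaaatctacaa

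Although the gene type is intergenic, many members are close to other genes or share sequence with them. Of the 160, 84 lie within 5000 bases of a protein-coding gene, and 34 of these overlap its span in whole or in part. The start of 22 members lies within 2000 bases of the start of a protein-coding gene on the opposite strand. They include Snhg18 at 148 bases from Sema5a, 5031425E22Rik at 172 bases from Kmt2e and 2010320M18Rik at 102 bases from Pik3r2. Another gene with at least 10 reads overlapped 39 members, 9 of them on the same strand. Stretches of at least 100 bases at 95% identity or more to another gene with reads were found in 73 members, and covered over 50% of the lead transcript in 27. Examples are Gm10076, with 383 of 384 bases in a match to the ribosomal protein gene Rpl41, Gm49207 with 96.1% of its length in the chaperone regulator Ahsa1, and Gm26825 with 95.8% opposite the chaperone Hspa8. Their levels, 32.4 ± 6.60 CPM in cold mice and 34.5 ± 10.7 CPM in ctrl mice for Gm10076, are therefore uncertain, and 83 members have neither kind of neighbour. Leaving out the members that share such a stretch, a choice made after the data were seen, leaves 45 tested members, none of which passed.

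The threshold of 30 reads cuts through a dense part of the distribution. Gm31517 and 2700054A10Rik, with 30 reads each, and Gm15706, with 31, are just inside, and Gm28867, Gm45833 and Gm17540, with 29 each, just outside; 5 lincRNA genes had 29 reads. None of these had enough reads for the test.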

How the data were processed

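Nanopore direct cDNA reads of poly(A) RNA from 6 mice were aligned with minimap2 to GRCm38, per the submitters' processing notes; no source used here gives the counting tool or its strand setting. The deposited files, 2 for each mouse, hold whole-number counts of reads per transcript, not normalized by the authors. Here the 2 files of a mouse were summed, as were the transcripts of a gene under GENCODE M21: 61434 of 61729 transcript IDs matched with version, 61538 without it, and the 191 without a match (0.139% to 0.165% of reads) were left out of CPM and tests. What distinguishes the 2 files is not stated.

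The members and lists were chosen with earlier results of these data known. Genes and transcripts were tested in edgeR 4.0.16 (R 4.3.3; TMM scaling, filterByExpr with a minimum count of 10, quasi-likelihood F-test, Benjamini-Hochberg adjustment over all tested, threshold 0.05) with cold over ctrl as the contrast and no covariate, and usage with diffSpliceDGE (Simes). On data simulated from these counts, 63.0% of 2-fold and 99.0% of 4-fold changes were called among 9541 genes, with 6.13% of calls false. The simulated spread followed the trend over abundance, without differences between genes of like abundance, and changes were put into genes of any type. Tested members had a median of 143 reads, against 197.5 over all genes tested, so these rates are not those of the members. DESeq2 1.42.0, limma 3.58.1 (voom), other filters and scaling, each file alone and leaving out each mouse were alternatives. Single values were compared by exact permutation. The edgeR p-values set the difference between the groups against the variation between mice, which is estimated with information from all genes tested. Shared stretches were found with megablast (BLAST 2.17.0) on GENCODE M21 transcripts, which also gave the printed lincRNA sequences. Named members are the 12 highest in mean CPM, those that passed, up to 8 in each direction by p among those without group overlap, those with the smallest usage p, the 8 with most transcripts, up to 5 of each list, and the 3 on each side of the read threshold, with neighbours of those that changed.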

Additional observations from a re-analysis of the deposited data

How the results depend on the processing

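The 4 lincRNA genes that rose numbered 2 with DESeq2 (Gm26880 and Gm4316) and between 2 and 5 when a mouse was left out; the 2 came without ctrl mouse 10. After leaving out members that share a stretch with another gene, a choice made after seeing the data, 0 of 45 passed. That follows from the choice, since the 4 are all among those left out. The 4 transcripts that rose numbered 2 with DESeq2 and between 2 and 5 with a mouse left out. The count of genes that fell and the count of usage changes were 0 in every alternative run. The cold minus ctrl difference in the share of reads moved by less than 1 SD for all members, without Bc1 and without the 3 most abundant. Its sign was not stable for the first 2 of these. For all members it was 0.0074 percentage points, against −0.024 without cold mouse 16 and −0.031 without ctrl mouse 6. Without Bc1 it was 0.016 percentage points, against −0.004 without ctrl mouse 6. Without the 3 most abundant it was 0.067 to 0.11 percentage points with a mouse left out, alternatives chosen after seeing the data. With no filter on low counts, 6 genes rose, Gm48942 and AC158975.2 being the additional ones.

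Over 30 named members, 356 of 387 alternative values kept their direction and side of the threshold, 8 no longer passed, 1 newly passed and 22 changed sign, all of the last in members that did not pass. With a mouse left out, log2 fold changes ranged from −0.34 to 0.19 for Bc1, −0.16 to 0.64 for AC160336.1, −0.28 to 0.61 for Gm26809, −0.020 to 0.12 for 1810058I24Rik, −0.045 to 0.38 for AC087871.1, −0.012 to 0.65 for Gm26917, −0.34 to 0.082 for Gm16702, −0.28 to 0.030 for Snhg18, −0.41 to 0.12 for Meg3, −0.076 to 0.21 for Snhg20, −0.019 to 0.30 for Snhg12 and −0.41 to 0.036 for Smkr-ps. With the X1 files alone the values were −0.24 for Snhg20, −0.025 for Snhg12, −0.049 for 5031425E22Rik, −0.14 for Epb41l4aos and 0.15 for Smkr-ps, and with the X2 files alone 0.014 for 2900097C17Rik; the cause was not tested. No paired analysis was possible because the mouse numbers are not shared between the groups. Depth limits the members of few reads: those not tested had at most 61 reads, and those tested had at least 49. It also sets the standard errors of the tested members.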
